A study of Mus musculus with 10 samples.

Results

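Respiratory complex I, the NADH dehydrogenase of the inner mitochondrial membrane, was described through the 35 nuclear genes for its subunits, taken by symbol (Ndufa, Ndufab, Ndufb, Ndufc, Ndufs and Ndufv) from a count table of 24544 genes. Of these 35 genes, 34 passed the filter on low counts, as did 12203 genes in all. The libraries came from long-term hematopoietic stem cells, the rare bone marrow cells that can rebuild blood for long periods. The cells of both groups came from Hoxb5-mCherry mice aged 2 to 3 months, in which mCherry marks cells that express Hoxb5. Both groups were sorted as Lin-, cKIT+, SCA1+, CD150+, CD48-, FLK2-, CD34- and Hoxb5+. The 5 NEO1+ libraries held cells with neogenin-1, the receptor encoded by Neo1, on their surface, and the 5 NEO1- libraries held cells without it. Each library was made by Smart-seq2 from 250 to 500 cells of 2 pooled mice, with no other treatment given in the labels. The comparison asks how the transcripts of the complex differ between these fractions of the stem cell pool.

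Complex I takes electrons from NADH, passes them along a flavin and a chain of iron-sulfur clusters to ubiquinone, and pumps protons across the membrane. Its matrix arm carries the redox groups and its membrane arm pumps the protons. The core subunits, some of which are encoded in mitochondrial DNA, are shared with bacteria and do the catalysis, whereas the accessory subunits surround them and are needed for assembly and stability. Quiescent blood stem cells are known for a low reliance on oxidative phosphorylation, and they raise it when they divide and differentiate.

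The promoters of the complex I genes are shown first, because motifs of factors known to bind nuclear genes of respiration were present in part of them. RefSeq promoters (build GRCm38.p6, from 250 bases before the start to 50 bases after it) were matched for 32 of the 35 genes. No promoter was available for the other 3, Ndufs1, Ndufa2 and Ndufb9, so their motifs are not known here. Both strands were searched. The motif of NRF1, a regulator of nuclear genes for respiration, spelled GCGCA, then any base, then GCGC, was found in 7 of 32 complex I promoters (21.9%) and in 5.19% of the promoters of 27025 genes. These 7 were the promoters of Ndufs5, Ndufs6, Ndufa5, Ndufa6, Ndufa8, Ndufa11 and Ndufb4. The following stretches are the 80 bases before the start of 5 of them, on the strand of the gene and written 5′ to 3′, with the NRF1 match in capitals.
Ndufs6, chr13:73328483-73328562, minus strand: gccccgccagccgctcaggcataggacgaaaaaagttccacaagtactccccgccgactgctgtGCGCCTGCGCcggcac
Ndufa5, chr6:24527691-24527770, minus strand: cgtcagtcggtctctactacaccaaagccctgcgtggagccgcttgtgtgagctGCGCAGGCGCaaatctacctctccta
Ndufa8, chr2:36049339-36049418, minus strand: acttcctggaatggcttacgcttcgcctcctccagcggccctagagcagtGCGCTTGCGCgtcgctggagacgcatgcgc
Ndufa11, chr17:56717682-56717761, plus strand: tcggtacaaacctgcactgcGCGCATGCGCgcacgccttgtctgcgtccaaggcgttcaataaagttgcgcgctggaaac
Ndufb4, chr16:37654369-37654448, minus strand: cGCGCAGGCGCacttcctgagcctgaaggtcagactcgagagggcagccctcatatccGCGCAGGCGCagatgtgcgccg

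The motif of YY1, a zinc finger factor, spelled AAGATGGCG, was found in 5 of the 32 complex I promoters (15.6%) and in 1.64% of the promoters of all genes. In all 5 it lay on the strand of the gene and began between 23 and 36 bases after the start. The matches are printed with their flanks, capitals marking the motif, to show this shared position. The motif contains the letters ATG, which can begin translation, and whether they did so in these 5 genes was not examined.
Ndufs7, chr10:80249466-80249489, plus strand: cgaggccAAGATGGCGgcgctggc
Ndufs4, chr13:114388045-114388066, minus strand: ctacaggAAGATGGCGgcggtc
Ndufs6, chr13:73328433-73328456, minus strand: caccggcAAGATGGCGgcggtgct
Ndufa9, chr6:126849099-126849122, minus strand: gtgggagAAGATGGCGgccgccgt
Ndufc1, chr3:51408917-51408940, minus strand: gcggaacAAGATGGCGccgtccgt

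The motif CCGGAAG, which ETS factors such as GABP bind, was found in 4 of 32 complex I promoters (12.5%) against 9.93% of all. The Ndufs6 promoter alone among the 32 held both the NRF1 and the YY1 motif. A match is a stretch of letters and was not measured as a bound site.

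For NEO1+ over NEO1- cells the median log2 fold change of the 34 tested complex I genes was -0.27, and 32 of them had a fitted value below 0. Over all 12203 genes tested the median was 0.01 and 49.0% were below 0. The fold changes of the complex I genes ran from -0.82 for Ndufb2 to 0.09 for Ndufv3. By edgeR's quasi-likelihood test with Benjamini-Hochberg adjustment, 0 of the 34 passed an adjusted p of 0.05, as did 0 of all genes tested (0%). Before adjustment, 6 of the 34 had a p under 0.05 and a lower level in NEO1+ cells and 0 had a higher one, where 3.49% of all genes tested were lower. In 5 of the 34 every NEO1+ library was below every NEO1- library, which held for 1.13% of all genes tested. DESeq2, run on the same genes, put 1 complex I gene, Ndufb9, past an adjusted p of 0.05 (0.0309), where 0.426% of all genes tested were past it in that direction. Bulk libraries cannot tell fewer cells with a transcript from less of it per cell.

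Transcript length moved with these fold changes. The 21 tested complex I genes with a principal transcript under 1000 bases all had a fitted value below 0, with a median of -0.33, and held all 6 genes with an unadjusted p under 0.05 and all 5 whose groups did not overlap. The 13 of 1000 bases or more had a median of -0.14, with 11 below 0. Other tested genes also differed by length: among those with a mean of 4 or more in log2 CPM (CPM, counts scaled to a common library size), 479 under 1000 bases had a median of -0.25 with 83.3% below 0, and 1813 of 1000 to 2000 bases had a median of -0.06. The medians of the longer classes, of 2000 to 4000 bases (3222 genes) and above (2114 genes), were both 0.04. Without ribosomal and respiratory protein genes, the 372 remaining short genes had a median of -0.20 with 78.8% below 0. Across genes, which are not independent replicates and share the 10 libraries, Spearman's rho between length and fold change was 0.64 for the 34 complex I genes and 0.17 for 7628 others. Per the labels' protocols, the same for both groups, the cDNA and later the pooled libraries were cleaned of small fragments with 0.7 volumes of beads. The part of this step in the fold changes was not tested. With a smoothed trend of log2 CPM on transcript length removed from each library, a correction chosen after seeing the data, the median of the complex I genes was -0.13, 27 of 34 were below 0, 0 had an unadjusted p under 0.05 and 0 did not overlap. In that fit 49.99% of all genes tested were below 0, 3.11% were lower at an unadjusted p under 0.05 and 0.836% did not overlap with NEO1+ lower.

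**Figure D1:**
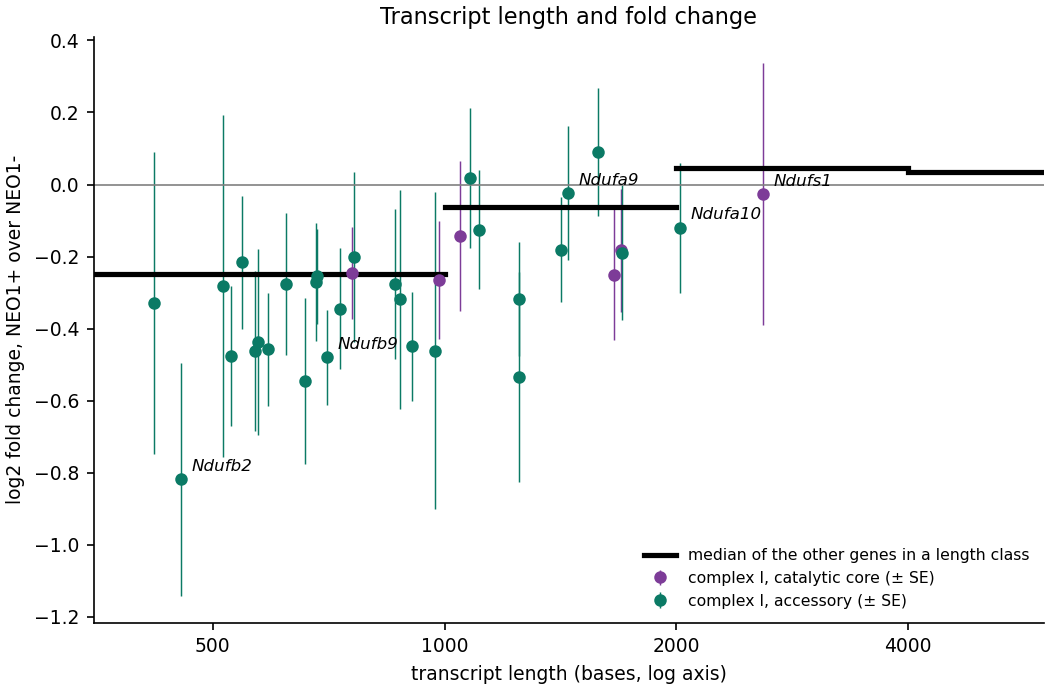
Fitted log2 fold change (vertical axis, NEO1+ over NEO1-, bars ± SE) of the 34 tested complex I genes against transcript length in bases (horizontal, log axis). Black lines give the median of the other genes in each length class, -0.25 under 1000 bases and 0.04 from 2000 bases, and the complex I genes lie lowest at short lengths.

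Library measures also differed between the groups. The NEO1+ libraries had counts for 13146 ± 391 genes and the NEO1- libraries for 12142 ± 680 (± SD, n = 5 per group). The ribosomal RNA precursor Rn45s took 32.3% ± 3.89 of the counts of the NEO1+ group and 38.4% ± 5.01 of those of the NEO1- group (± SD, n = 5), with the highest shares, 42.3% and 42.4%, in NEO1- libraries 1 and 2. Those same libraries also had the highest summed level of complex I. When detected genes per library entered the fit as a covariate, 0 complex I genes had an unadjusted p under 0.05, the median was -0.17 and 26 of 34 were below 0. Over all genes tested, the share lower at that p was 0.91% in this fit, against 3.49% without the covariate. Without NEO1- libraries 1 and 2, an alternative chosen after seeing the data, 2 complex I genes had an unadjusted p under 0.05 (3.18% of all genes tested were lower), the median was -0.20 and 29 were below 0.

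Total counts ran from 21.2 to 38.9 M per library. Neo1 itself, the gene of the sorted protein, averaged 47.5 ± 20.5 CPM over the NEO1+ group and 10.6 ± 5.65 CPM over the NEO1- group (± SD, n = 5), with ranges that overlapped. Of 10 stem cell markers, 9 had counts in every library, and Hoxb5 ran from 0 to 4.90 CPM with 1 library at 0. Of 12 granulocyte and monocyte markers none was at 0 in all libraries, and their summed level ran from 160.3 to 4391 CPM in the NEO1+ and from 148 to 2783 CPM in the NEO1- group. Of 11 erythroid markers 3 were at 0 in all libraries (Hba-a2, Hbb-bs and Hbb-bt), with sums of 38.3 to 412 and 28.9 to 235 CPM. Of 10 lymphoid markers 5 were at 0 throughout, among them Pax5, Cd3e, Rag1 and Dntt, with sums of 34.1 to 50.3 and 25.1 to 60.8 CPM. Of 10 megakaryocyte markers 1 was at 0 throughout (Gp6), with sums of 941 to 1122 and 873 to 1148 CPM, and of 8 niche markers 3 were (Lepr, Cdh5 and Bglap), with sums of 30.4 to 86.7 and 2.67 to 53.8 CPM. The part of these cells and of Rn45s in the complex I values was not tested.

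Summed over the complex I genes, NEO1+ libraries 1 to 5 held 1835, 1962, 1836, 1835 and 1852 CPM. NEO1- libraries 1 to 5 held 2389, 2439, 2266, 2071 and 1966 CPM. All NEO1- libraries were above all NEO1+ libraries, but the lowest NEO1- library (number 5) and the highest NEO1+ library (number 2) nearly met. The means were 1864 ± 55.5 and 2226 ± 203 CPM (SD, n = 5 each), a ratio of 1.19 for NEO1- over NEO1+. The summed level of 41 genes of complexes II to V was 5354 ± 72.2 CPM for NEO1+ against 5822 ± 537 CPM for NEO1- (± SD, n = 5), a ratio of 1.09. In NEO1+ libraries between 21 and 26 of the 34 complex I genes were below their own mean over the 10 libraries, and in NEO1- libraries between 4 and 18 were. Each of the 34 had its highest library in the NEO1- group, as did 63.5% of all genes tested, and for 27 of the 34 (31.0% of all genes) it was NEO1- library 1 or 2. This count was made after the values were seen.

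**Figure D2:**
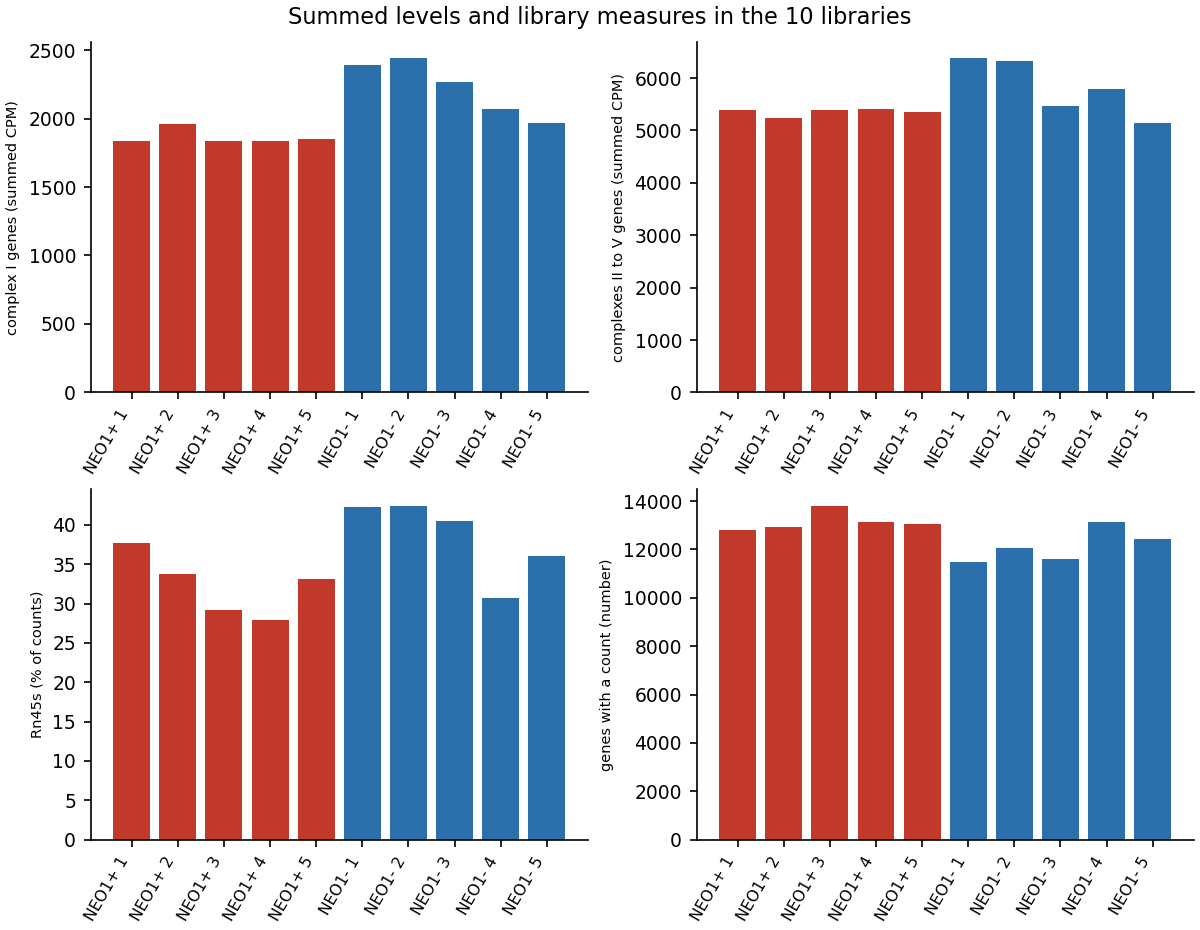
Bars give, for each of the 10 libraries (NEO1+ red, NEO1- blue), the summed CPM of complex I genes and of complexes II to V, the share of counts on Rn45s in percent and the number of genes with a count. Complex I sums lie between 1835 and 1962 CPM in NEO1+ and between 1966 and 2439 CPM in NEO1- libraries.

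The catalytic core was described by its 6 nuclear members in the list, all in the matrix arm, and none had an unadjusted p under 0.05. All 6 had a fitted log2 fold change below 0, with a median of -0.21. Ndufv1, which binds NADH and the flavin, stood at 86.96, 69.1, 93.2, 86.9 and 89.02 CPM in NEO1+ libraries 1 to 5 and at 138, 109, 82.00, 107 and 69.98 CPM in NEO1- libraries 1 to 5. Its groups overlapped, NEO1+ library 2 and NEO1- library 5 being low, and the log2 fold change was -0.25 (SE 0.18, unadjusted p 0.191). Ndufv2, its iron-sulfur partner at the NADH site, stood at 77.7, 115, 97.3, 86.3 and 110.02 CPM in NEO1+ and at 87.8, 114, 149, 109 and 91.8 CPM in NEO1- libraries. Here too the ranges overlapped, with NEO1- library 3 the highest, at a log2 fold change of -0.18 (SE 0.17, p 0.305).

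Ndufs1, the large matrix arm subunit that carries several of the iron-sulfur clusters, stood at 45.6, 80.6, 52.4, 64.1 and 31.8 CPM in NEO1+ and at 47.5, 27.7, 113, 32.1 and 59.2 CPM in NEO1- libraries. It had the widest spread over libraries of the tested complex I genes, high in NEO1- library 3 and low in NEO1- libraries 2 and 4 and NEO1+ library 5. Its log2 fold change was -0.03 (SE 0.36, 95% interval -0.81 to 0.75), and leaving out NEO1- library 3 gave 0.40. Exons of Ndufs1 overlap those of Eef1b2 and Ino80dos on the other strand.

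Ndufs7, whose cluster hands electrons to ubiquinone, stood at 93.1, 94.3, 80.99, 91.2 and 116 CPM in NEO1+ and at 107, 115, 117, 110.2 and 114 CPM in NEO1- libraries. Apart from NEO1+ library 5, every NEO1+ library was below every NEO1- library, and the log2 fold change was -0.25 (SE 0.13, p 0.0745). Ndufs8, which carries further clusters of the chain, stood at 69.7, 65.7, 57.8, 77.8 and 54.5 CPM in NEO1+ and at 67.6, 97.04, 70.3, 83.9 and 72.2 CPM in NEO1- libraries. Its ranges overlapped and its log2 fold change was -0.26 (SE 0.16, p 0.130). Ndufs3, a core subunit near the quinone site without a cluster of its own, stood at 66.3, 61.6, 89.2, 78.2 and 69.8 CPM in NEO1+ and at 120.4, 87.4, 54.9, 75.4 and 65.3 CPM in NEO1- libraries. The groups were mixed, with NEO1- library 1 the highest and NEO1- library 3 the lowest, at -0.14 (SE 0.21, p 0.502), and the value was 0.046 without NEO1- library 1.

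**Figure D3:**
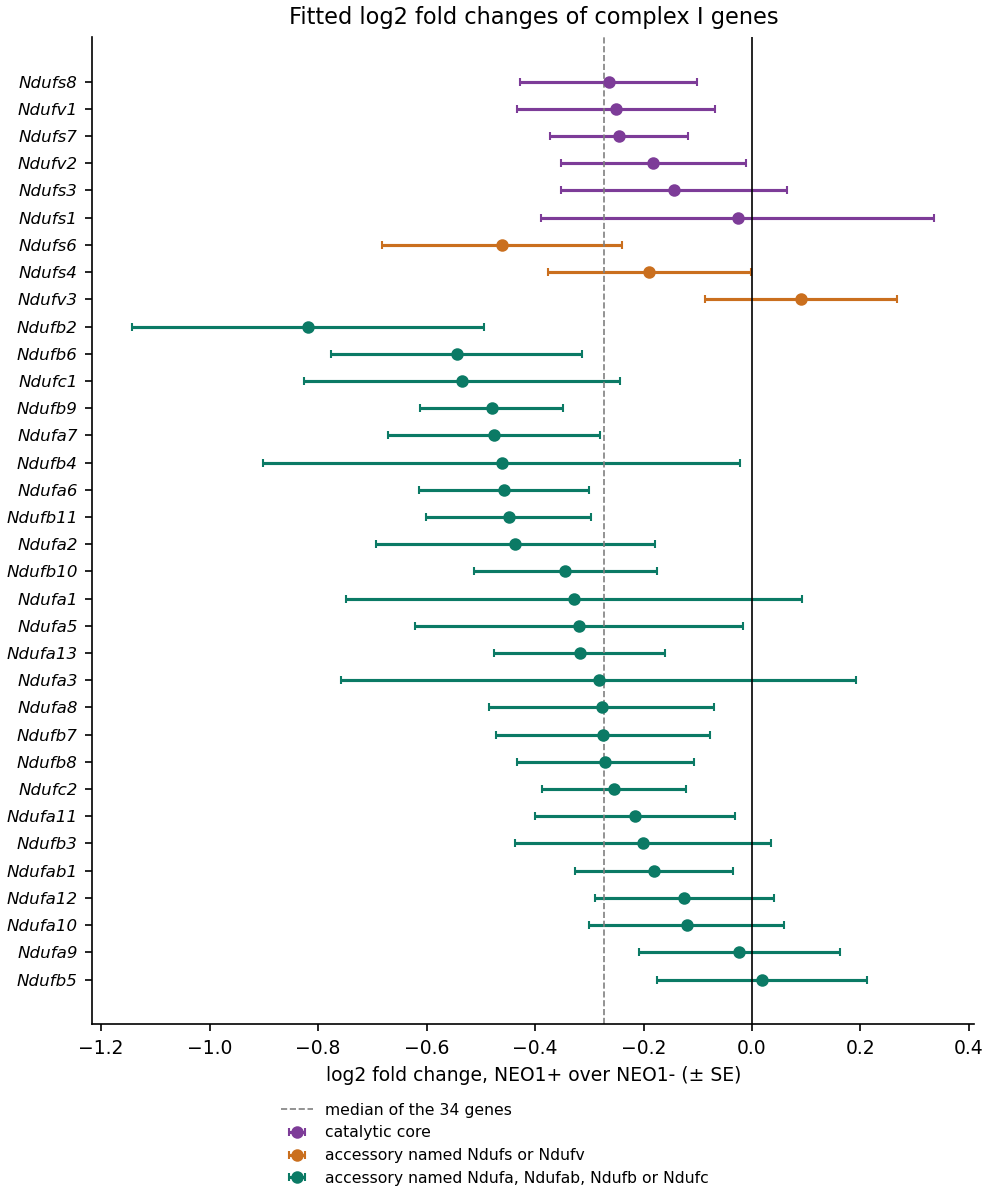
Fitted log2 fold changes (horizontal axis, NEO1+ over NEO1-, bars ± SE) of the 34 tested complex I genes, coloured by class, with the median of -0.27 as a dashed line. Of the 34, 32 lie below 0, and Ndufb2 lies farthest at -0.82.

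The 6 complex I genes with an unadjusted p under 0.05 were all accessory subunits. Ndufb9 and Ndufa6 are the LYR-motif subunits that each hold a copy of the mitochondrial acyl carrier protein, the product of Ndufab1, against the complex. Ndufb9 (chr15:58933756-58939488, plus strand), in the membrane arm, stood at 91.8, 121, 121, 107 and 111 CPM in NEO1+ and at 180.3, 174, 146, 139 and 131 CPM in NEO1- libraries. All NEO1- libraries were above all NEO1+ libraries, with NEO1- libraries 1 and 2 the highest. Ndufb9 was 1.39-fold lower in NEO1+ cells, at a log2 fold change of -0.48 (SE 0.13, unadjusted p 0.00288, edgeR adjusted p 0.390). Its adjusted p by edgeR ran from 0.242 to 0.725 when libraries were left out in turn.

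Ndufa6 (chr15:82350140-82354322, minus strand), in the matrix arm, stood at 58.8, 63.4, 50.1, 45.3 and 62.6 CPM in NEO1+ and at 83.8, 81.9, 80.4, 70.5 and 68.1 CPM in NEO1- libraries. No library of one group fell within the other's range, and the log2 fold change was -0.46 (SE 0.16, unadjusted p 0.0117, edgeR adjusted p 0.553). Its promoter held the NRF1 motif, starting 24 bases after the start. Ndufab1, their shared acyl carrier partner, which also serves mitochondrial fatty acid synthesis, had means of 61.1 ± 4.83 and 69.3 ± 6.49 CPM (SD, n = 5 each) and a log2 fold change of -0.18 (SE 0.15, p 0.234).

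Of the membrane arm subunits, Ndufb11 (chrX:20615326-20617619, minus strand), an X-linked subunit, stood at 49.1, 62.6, 52.6, 54.3 and 58.2 CPM in NEO1+ and at 87.2, 79.4, 70.5, 76.9 and 63.9 CPM in NEO1- libraries. Every NEO1+ value was below every NEO1- value, NEO1+ library 2 and NEO1- library 5 lying close together, and the log2 fold change was -0.45 (SE 0.15, unadjusted p 0.0107, edgeR adjusted p 0.550). Ndufb2 (chr6:39592574-39603382, plus strand) stood at 12.4, 12.1, 11.2, 15.6 and 11.8 CPM in NEO1+ and at 33.9, 25.5, 16.1, 16.2 and 19.5 CPM in NEO1- libraries. NEO1- libraries 1 and 2 were the highest, and NEO1- libraries 3 and 4 lay just above NEO1+ library 4. Its fitted difference was the largest of the 34, 1.76-fold lower in NEO1+ cells (log2 fold change -0.82, SE 0.32, unadjusted p 0.0249, edgeR adjusted p 0.633). It was also one of the shortest transcripts of the list, at 455 bases.

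Ndufb6 (chr4:40270591-40279421, minus strand), also in the membrane arm, stood at 33.5, 34.4, 36.8, 31.4 and 24.5 CPM in NEO1+ and at 60.2, 55.2, 45.3, 45.1 and 28.5 CPM in NEO1- libraries. NEO1- library 5 lay within the NEO1+ range and the other NEO1- libraries lay above it, and the log2 fold change was -0.54 (SE 0.23, unadjusted p 0.0343, edgeR adjusted p 0.705). Ndufa7 (chr17:33824572-33838317, plus strand), in the matrix arm, stood at 41.2, 51.9, 40.7, 34.6 and 48.9 CPM in NEO1+ and at 81.05, 64.2, 52.5, 54.3 and 50.3 CPM in NEO1- libraries. NEO1+ library 2 lay above NEO1- library 5, and the log2 fold change was -0.48 (SE 0.19, unadjusted p 0.0292, edgeR adjusted p 0.674). The fifth gene whose groups did not overlap, Ndufs6, a zinc-binding accessory subunit of the matrix arm, had an unadjusted p of 0.0574. It stood at 23.2, 28.6, 24.4, 28.01 and 21.6 CPM in NEO1+ and at 29.7, 44.8, 31.9, 35.9 and 31.02 CPM in NEO1- libraries, at a log2 fold change of -0.46 (SE 0.22), with NEO1+ library 2 and NEO1- library 1 nearly equal. The correction for transcript length moved the fold changes of the 6 genes nearer to 0, to -0.25 for Ndufb9, -0.19 for Ndufa6, -0.28 for Ndufb11, -0.46 for Ndufb2, -0.29 for Ndufb6 and -0.17 for Ndufa7. Without NEO1- libraries 1 and 2, Ndufb2 stood at -0.45, Ndufb6 at -0.30 and Ndufa7 at -0.27. With genes detected as a covariate, Ndufb2 stood at -0.44, Ndufa6 at -0.26 and Ndufa7 at -0.24.

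**Figure D4:**
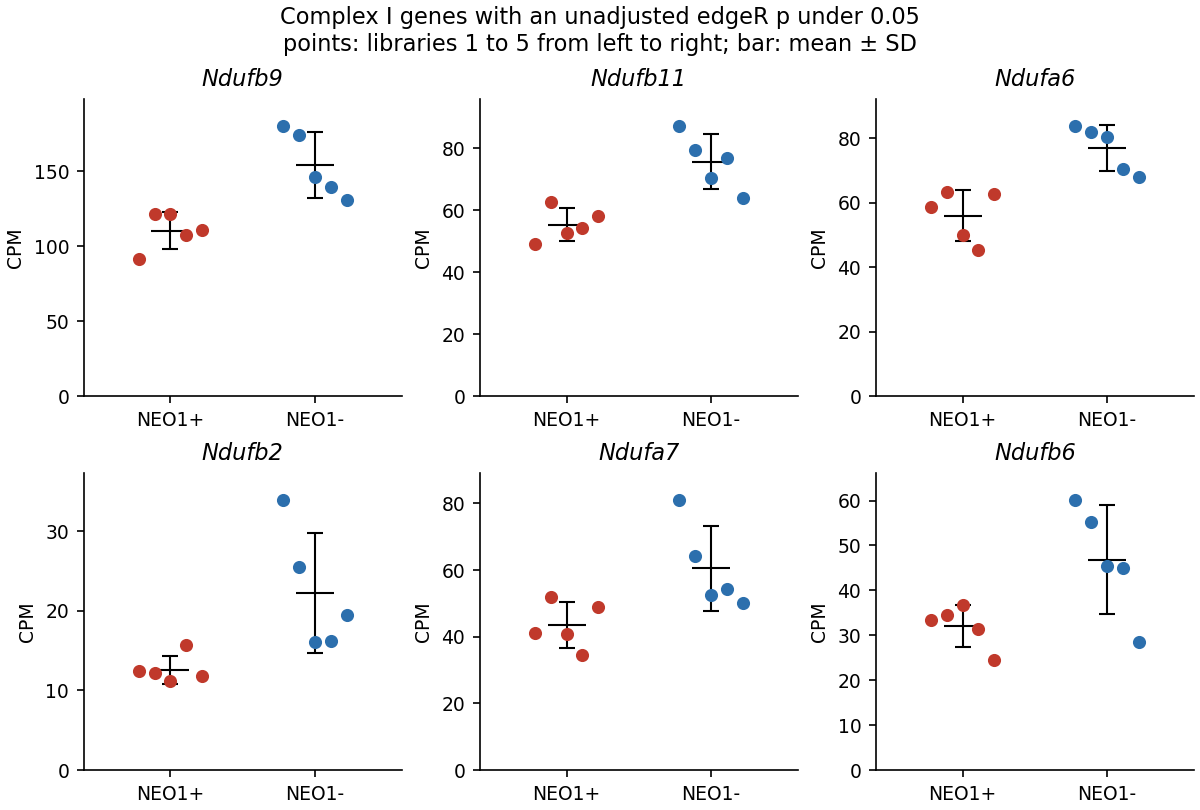
CPM in each library (points, libraries 1 to 5 from left to right) with mean ± SD (bars, n = 5) of the 6 complex I genes with an unadjusted p under 0.05. For Ndufb9, Ndufb11, Ndufa6 and Ndufb2 no NEO1- point is as low as any NEO1+ point, and for Ndufa7 and Ndufb6 the groups overlap.

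The 3 complex I genes with the most positive fold changes were Ndufv3, Ndufb5 and Ndufa9, each of over 1000 bases. Ndufv3, an accessory subunit beside the NADH site, stood at 50.03, 51.1, 46.3, 49.1 and 48.8 CPM in NEO1+ and at 46.4, 34.8, 47.4, 44.6 and 57.2 CPM in NEO1- libraries. The NEO1+ libraries were close together and lay inside the range of the NEO1- libraries, and the log2 fold change was 0.09 (SE 0.18, 95% interval -0.29 to 0.47). Ndufb5, in the membrane arm, stood at 64.2, 68.05, 51.1, 75.1 and 69.8 CPM in NEO1+ and at 51.8, 94.8, 55.3, 62.1 and 59.97 CPM in NEO1- libraries. All NEO1- libraries but number 2 lay within the NEO1+ range, and the log2 fold change was 0.02 (SE 0.19, 95% interval -0.40 to 0.44). Ndufa9, a nucleotide-binding subunit where the arms meet, stood at 85.2, 121, 122, 114 and 112 CPM in NEO1+ and at 165, 86.6, 122, 92.7 and 95.98 CPM in NEO1- libraries. Its log2 fold change was -0.02 (SE 0.19, 95% interval -0.42 to 0.38) with ranges that overlapped, NEO1- library 1 being the highest and NEO1+ library 1 the lowest. These intervals also hold the median of the list, -0.27, so a difference of that size cannot be set aside for these genes.

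The genes named for the core were then set against the others. By symbol, the 9 tested Ndufs and Ndufv genes had a median of -0.19 on the log2 scale with 8 below 0, and the 25 others had a median of -0.32 with 24 below 0. The difference of the medians was 0.13. The Ndufs and Ndufv names include the accessory subunits Ndufs4, Ndufs5, Ndufs6 and Ndufv3. Split by function, the 6 catalytic core genes had a median of -0.21 and the 28 tested accessory genes one of -0.30. The mean log2 CPM of the Ndufs and Ndufv genes exceeded that of the others by 0.66 ± 0.12 for NEO1+ against 0.51 ± 0.16 for NEO1- (± SD, n = 5), and these ranges overlapped. Median transcript length differed in the same split, at 1582 bases for the 9 tested Ndufs and Ndufv genes and 732 bases for the 25 others. With the correction for transcript length, the medians of the split by symbol were -0.12 and -0.13. The difference of those medians was 0.0013 with genes detected as a covariate, -0.030 without NEO1- libraries 1 and 2, and 0.023 without NEO1- library 1.

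By position in the complex, the 15 matrix arm genes had a median of -0.25 with 14 below 0, and the 18 tested membrane arm genes had a median of -0.30 with 17 below 0. Ndufab1 belongs to both arms. By name, the 12 Ndufa genes were all below 0 with a median of -0.30, and 9 of 10 Ndufb genes were, with a median of -0.40. The 2 Ndufc genes, for membrane arm subunits, stood at -0.53 for Ndufc1 and -0.25 for Ndufc2.

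The remaining accessory genes did not reach an unadjusted p under 0.05. Ndufa13, for a subunit known also as GRIM-19, had means of 62.01 ± 9.67 and 77.3 ± 7.43 CPM and a log2 fold change of -0.32 (SE 0.16, p 0.0645). Ndufb10, one of the subunits with paired cysteines on the intermembrane side, stood at 65.1 ± 4.61 and 82.7 ± 17.7 CPM, at -0.34 (SE 0.17, p 0.0616). The other genes for subunits of that kind, Ndufa8 and Ndufb7, had -0.28 each, and Ndufs5 had no counts. Ndufs4, whose loss in mice gives a known model of Leigh syndrome, had means of 61.9 ± 8.96 and 70.6 ± 16.2 CPM and a log2 fold change of -0.19 (SE 0.19, p 0.329). Ndufa10, a subunit related to nucleoside kinases, and Ndufa12, a matrix arm subunit, were nearer 0, at -0.12 each. The least certain values were those of the genes with few counts, Ndufa3 (SE 0.47), Ndufb4 (SE 0.44) and Ndufa1 (SE 0.42), all of the membrane arm.

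**Figure D5:**
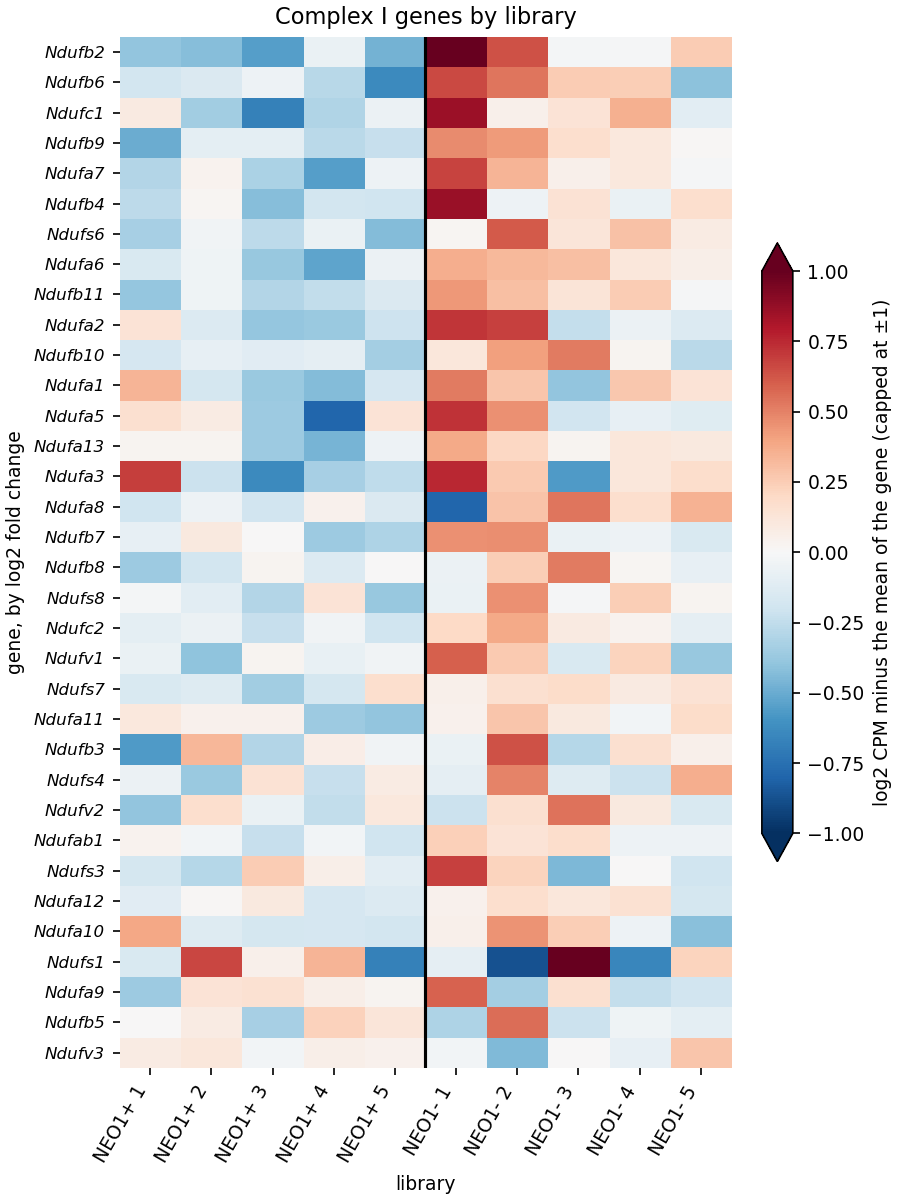
Log2 CPM of each tested complex I gene in each of the 10 libraries after subtracting the mean of that gene (colour scale in log2 units, capped at ±1), with genes in order of fold change. NEO1- libraries 1 and 2 hold the highest value of 27 of the 34 genes, and the bottom rows from Ndufs1 to Ndufv3 show no side that is higher throughout.

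Ndufs5, for an intermembrane-side subunit of the membrane arm, had 0 counts in all 10 libraries, which allows up to 3 counts or between 0.0698 and 0.144 CPM depending on the library. This limit covers reads assigned to the gene and not its expression, since reads that fit a near-identical copy may be counted elsewhere or not at all. BC002163, annotated in GENCODE M21 as a processed pseudogene and 99.4% identical to a Ndufs5 transcript over 319 bases, had between 8 and 48 counts in each library. Near-identical processed copies (at least 95% over 250 bases) were also annotated for Ndufa12, Ndufab1, Ndufb11, Ndufb3, Ndufb4, Ndufs3 and Ndufs6, so counts of these genes are uncertain where reads fit either copy. Exons of 10 of the 35 genes overlapped a gene on the other strand, among them Ndufb11 with Rbm10, Ndufb2 with Braf and Ndufs6 with Mrpl36. Strand use in counting was not given in the sources used here, so reads from such pairs may not be told apart. Of the 20 tested genes with neither a copy nor an overlap, 19 were below 0, with a median of -0.27.

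Levels also varied among the complex I genes. Per length, the highest were Ndufb9 at 188 ± 40.4 CPM per kilobase, Ndufs7 at 137 ± 17.1 and Ndufc2 at 135 ± 18.2 (SD over 10 libraries). These neighbours overlapped within their spread. Among genes with counts, the lowest were Ndufb4 at 10.3 ± 3.02, Ndufc1 at 17.1 ± 5.38 and Ndufa3 at 19.9 ± 6.95 CPM per kilobase. Within groups, deviations of pairs of complex I genes from their group means had a median Pearson r of 0.16 over 561 pairs and 10 libraries, from -0.81 to 0.96, with 64.9% above 0. Over the 10 libraries the genes most like the mean pattern of the complex I genes, among 7763 compared, were Gnb2 (r 0.96), Rps10 (0.96), D8Ertd738e (0.96), Rps15 (0.95) and Rps14 (0.95).

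The promoter motifs were set beside the expression values. The 6 tested genes with the NRF1 motif had log2 fold changes from -0.46 to -0.22, with a median of -0.39, and the 25 tested genes with a promoter but without the motif had a median of -0.25. All 6 had a transcript under 1000 bases, the class in which the complex I genes had a median of -0.33. The 5 genes with the YY1 motif ran from -0.53 to -0.02, with a median of -0.25 against -0.27 for 26 others. The 4 genes with the ETS motif had a median of -0.27, as did 27 others. These medians are descriptions of few genes.

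Assembly factors, which build the complex without staying in it, had a median of -0.10 on the log2 scale over 17 tested genes, with 12 below 0. Of these, 2 had an unadjusted p under 0.05, both lower in NEO1+ cells, where 3.49% of all genes tested were. Tmem261, a membrane arm assembly factor, had the smallest p, with means of 18.5 ± 3.71 and 28.9 ± 3.43 CPM and a log2 fold change of -0.65 (SE 0.25, unadjusted p 0.0225, edgeR adjusted p 0.629). In the other direction Atp5sl, also a membrane arm assembly factor, stood at 38.0 ± 9.26 and 28.2 ± 10.3 CPM, at 0.43 (SE 0.30, p 0.178).

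Complexes II to V had a median of -0.27 over 41 genes, equal to that of complex I at this precision, with 33 below 0 (49.0% of all genes tested) and 6 lower in NEO1+ cells at an unadjusted p under 0.05 (3.49% of all genes tested). Complex IV, cytochrome c oxidase, had 12 of 12 genes below 0 with a median of -0.30. Its subunit gene Cox4i1 averaged 267 ± 19.5 CPM for NEO1+ against 342 ± 40.3 CPM for NEO1-, at -0.36 (SE 0.10, unadjusted p 0.00308, edgeR adjusted p 0.400). Complex V, the ATP synthase, had 13 of 16 below 0 with a median of -0.31, complex III 6 of 9 with a median of -0.21, and complex II, succinate dehydrogenase, 2 of 4 with a median of -0.07. The smallest p in the other direction was that of Uqcrc2, a complex III core gene, at 0.19 (SE 0.13, p 0.187). Of the genes for mitochondrially encoded subunits of complex I, 0 of 7 were in the table and they were not analysed here. Ribosomal protein genes, which are also short, had a median of -0.35 with 78 of 81 below 0 and 59 lower at an unadjusted p under 0.05, and mitochondrial ribosomal protein genes had a median of -0.17 with 63 of 78 below 0 and 4 lower at that p.

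Transcription regulators of respiratory genes had no common direction, with 7 of 15 below 0 and a median of 0.05. Myc, which drives growth and mitochondrial biogenesis genes, averaged 261 ± 46.8 CPM for NEO1+ against 365 ± 93.9 CPM for NEO1-, at -0.48 (SE 0.17, unadjusted p 0.0144, edgeR adjusted p 0.586). In the other direction Tfb2m, a mitochondrial transcription factor, stood at 25.8 ± 3.62 and 16.8 ± 7.86 CPM, at 0.62 (SE 0.35, p 0.100). Nrf1, whose motif is printed above, stood at 36.9 ± 8.47 and 46.4 ± 10.9 CPM, at -0.33 (SE 0.23, p 0.180).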

How the data were processed

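RNA was measured in 5 NEO1+ and 5 NEO1- libraries. The authors deposited raw counts per gene symbol; the submitters' processing notes name bcl2fastq 2.18, STAR 2.4, DESeq2 1.22.2 and build mm10, while the counting tool, annotation and strand use were not given in the sources used here. The deposited log2 table, in which each count was scaled by a constant of its library and 1 was added, was used for 1 alternative. Without molecular identifiers, limits from counts cover counting error only. Genes were tested with edgeR 4.0.16 (R 4.3.3) by a robust quasi-likelihood fit after filterByExpr and TMM, with Benjamini-Hochberg adjustment over 12203 genes and a threshold of 0.05. CPM are counts scaled to a common TMM library size, and log2 CPM use a prior count of 2. SE is the size of the log2 fold change divided by the root of the F statistic. Alternatives used DESeq2 1.42.0 and limma 3.58.1. The labels do not say that equally numbered libraries share animals, and p-values measure the spread between these libraries, which may be technical. Transcript lengths, overlaps and copies (blastn 2.17.0) came from GENCODE M21 on GRCm38, and promoters from RefSeq. Members and lists were chosen with earlier results of these data known. Per-library values are given by rule for the catalytic core, for genes with an unadjusted p under 0.05 and for the 3 most positive genes, and context lists by their smallest p in each direction; other genes named with values, such as Ndufs6, Ndufab1 and Nrf1, were chosen after their values were seen.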

Additional observations from a re-analysis of the deposited data

Results flagged for a closer look

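In 6 of 72 sets of 5 libraries examined, 1 library stood apart from the other 4 of its group by Dixon's criterion, where chance gives about 3.6. In log2 CPM, Ndufv1 was low in NEO1+ library 2, at 6.11 against 6.44 to 6.54 in the others. Ndufa8, the intermembrane-side subunit, was low in NEO1- library 1, at 5.54 against 6.50 to 6.87. Ndufa9 was low in NEO1+ library 1, at 6.41 against 6.81 to 6.93, and Ndufa10 was high in the same library, at 7.02 against 6.45 to 6.51. Ndufb4 was high in NEO1- library 1, at 4.15 against 3.23 to 3.46. The summed level of the complex I genes was highest in NEO1+ library 2, at 1962 CPM against 1835 to 1852 CPM in the other NEO1+ libraries.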

How the results depend on the processing

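Of 285 alternative fits of the 15 genes named by rule, 262 kept the direction and the side of the threshold, 22 turned the direction and 1 moved past it (Ndufb9 by DESeq2, -0.49); with the length correction the 6 genes of unadjusted p under 0.05 kept their direction at smaller values, from -0.46 to -0.17. The number of complex I genes with an unadjusted p under 0.05, 6 as reported, was 11 by DESeq2 (5.28% of all genes tested were lower), 0 with genes detected as a covariate (0.91%), 2 without NEO1- libraries 1 and 2 (3.18%), 0 with the transcript length correction (3.11%), and 4 to 8 when libraries were left out in turn (8 without NEO1- library 5, 4 without NEO1+ library 3, NEO1+ library 4 or NEO1- library 2). The median fold change was -0.13 with the length correction and -0.31 to -0.24 with libraries left out. The number of genes whose groups did not overlap, 5 as reported, was 0 with the length correction (0.836% of all genes) and 5 to 9 with libraries left out, 9 without NEO1- library 5, where 2.22% of all genes did so against 1.13% as reported. The core minus accessory difference, 0.13 as reported, was 0.0013 with the covariate, 0.0075 with the length correction, -0.030 without NEO1- libraries 1 and 2 and 0.023 to 0.17 with libraries left out, lowest without NEO1- library 1. The equal numbers of the libraries were checked for pairing: deviations of same-numbered libraries correlated at 0.00 to 0.04 over all genes, and 3 of 5 NEO1+ libraries correlated best with their own number. Over 2632 genes with a mean log2 CPM over 6 the correlations were -0.28, 0.22, 0.11, 0.13 and 0.11 for numbers 1 to 5, and 1 of 5 was best with its own number. With the replicate block, 5 complex I genes had an unadjusted p under 0.05, at a median of -0.26, and 0 passed adjustment. The median of all genes was 0.11 by limma-trend on the deposited log2 values and 0.10 with the block, against 0.01 as reported; the complex I medians there were -0.26 in both. Genes near 0 changed sign: Ndufs1 was 0.089 by limma-trend, 0.085 with the replicate block, 0.57 with the covariate and -0.21 to 0.40 with libraries left out. Ndufs3 was 0.17 without NEO1- libraries 1 and 2, and -0.25 to 0.046 with libraries left out. Ndufv3 was -0.018 without NEO1- libraries 1 and 2. Ndufb5 was -0.052 to 0.20 with libraries left out. Ndufa9 was 0.0026 by limma-trend, 0.014 with the block, 0.25 with the covariate, 0.10 without NEO1- libraries 1 and 2, 0.031 with the length correction and -0.10 to 0.16 with libraries left out. Removing the filter put 1 gene lower and 1 higher past an adjusted p of 0.05, 0 of them for complex I. The cause of these differences was not tested. Overlap of groups was not recomputed without the filter or for the DESeq2, block and covariate fits. Each tested complex I gene had 169 counts or more in every library.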
